A study of Mus musculus with 8 samples.

Results

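The genes described here encode proteins that move ions, water and nutrients across the surface epithelium of the colon, together with a few enzymes and scaffolds that serve them. The list holds 35 mouse genes, taken by name: every array probe whose RefSeq accession belonged to a listed gene was read. Of the 35 genes, 33 had a matched probe (53 probes in all), and Slc9a2 and Slc9a3, which encode sodium and proton exchangers, had none. For 28 genes the scanner software marked a probe as found on at least 3 arrays, and these genes were tested. They stood among 15854 features tested over the whole array, 10951 of them named genes.

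The arrays compared the colon of 8 male hCYP1A mice, a line with a humanized CYP1A genotype on the C57BL/6 background, fed AIN93M diet. At 8 weeks of age, 5 mice received PhIP by gavage at 200 mg/kg body weight and 3 received PBS. PhIP is a heterocyclic amine that forms in meat cooked at high heat, and CYP1A enzymes begin its conversion into a form that binds DNA. Colon crypt epithelium was scraped with a glass slide 24 hours later, and each array carried labelled cRNA of 1 mouse. All mice of both groups carried the same genotype, so no value here speaks of mice without it, and the purpose of the series was to find colonic genes that respond to PhIP in these mice.

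The colon recovers salt and water from its contents. Surface colonocytes take up sodium through the epithelial sodium channel and through sodium and proton exchangers, and take up chloride in exchange for bicarbonate, which carbonic anhydrases supply. The sodium and potassium ATPase of the basolateral membrane drives this uptake, and water follows, partly through aquaporins. Crypt cells also secrete chloride, which enters through Slc12a2, leaves through Cftr and depends on basolateral potassium channels.

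Values are normalized log2 intensities of the probe with the highest mean for each gene, and a log2 fold change is the PhIP mean minus the PBS mean. Intensities below a floor of 4.41 on this scale were raised to it. The scanner software found between 53.8% and 57.1% of probes on 7 arrays, and pairs of these correlated at 0.97 or more. The array deposited with PhIP mouse 1 was scanned at a higher gain (700 against 650), found 21.4% of the probes and had a median correlation of 0.77 with the others. It found 16 of the 28 tested transport genes, whereas each of the others found 26 to 28. It was the highest or the lowest of the 8 arrays for 21 of the 28 genes, against 2 to 8 genes for any other array. The main comparison is therefore given with 8 arrays and with 7 arrays, without PhIP mouse 1. PBS mice 1 and 2 shared a range of slide numbers that held no other mouse, and the slides of PBS mice 1 and 2 and PhIP mice 1 and 3 had been re-dipped. Values within the re-dipped slides, and within the range of slide numbers that held both groups, include PhIP mouse 1 and were not run without it.

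Markers of other cells were read on the same arrays. All 12 of the 12 fibroblast and matrix markers had negative log2 fold changes with either set of arrays (median -0.83 with 8 arrays, -0.74 with 7). Their mean level lay between 10.37 and 11.05 on the PBS arrays and between 9.23 and 10.06 on the PhIP arrays. Of 9 tested epithelial markers, 7 had positive values with 8 arrays and all 9 with 7 arrays, led by the keratins Krt18 (0.49 and 0.43) and Krt8 (0.37 and 0.35). The mean epithelial level was 11.08 to 11.29 in PBS mice and 11.24 to 11.49 in PhIP mice. None of these markers passed adjustment over all features, and the part of cell composition in the results below was not tested. In scraped tissue, fewer cells of a type cannot be told apart from less RNA per cell.

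The colonocyte label was only partly borne out by the probes. Of 16 markers of differentiated colonocytes that are not on the list, 8 were tested, with a median log2 fold change of -0.50 with 8 arrays and -0.07 with 7. Hpgd, Ceacam1, Selenbp1, Emp1 and Klf4 were bright, with PBS means of 11.70, 11.67, 10.48, 9.93 and 8.38. Mall, Tmigd1 and Guca2a were dim, with PBS means of 5.42, 4.59 and 4.46. The defining markers Krt20 and Vil1, the epithelial markers Cdh17, Cdx1 and Cdx2, and the listed genes Car1, Car4 and Slc26a2 were not found on the minimum of 3 arrays. Whether these transcripts were scarce or their probes weak was not tested, and the genes are called transport genes from here on.

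**Figure D1:**
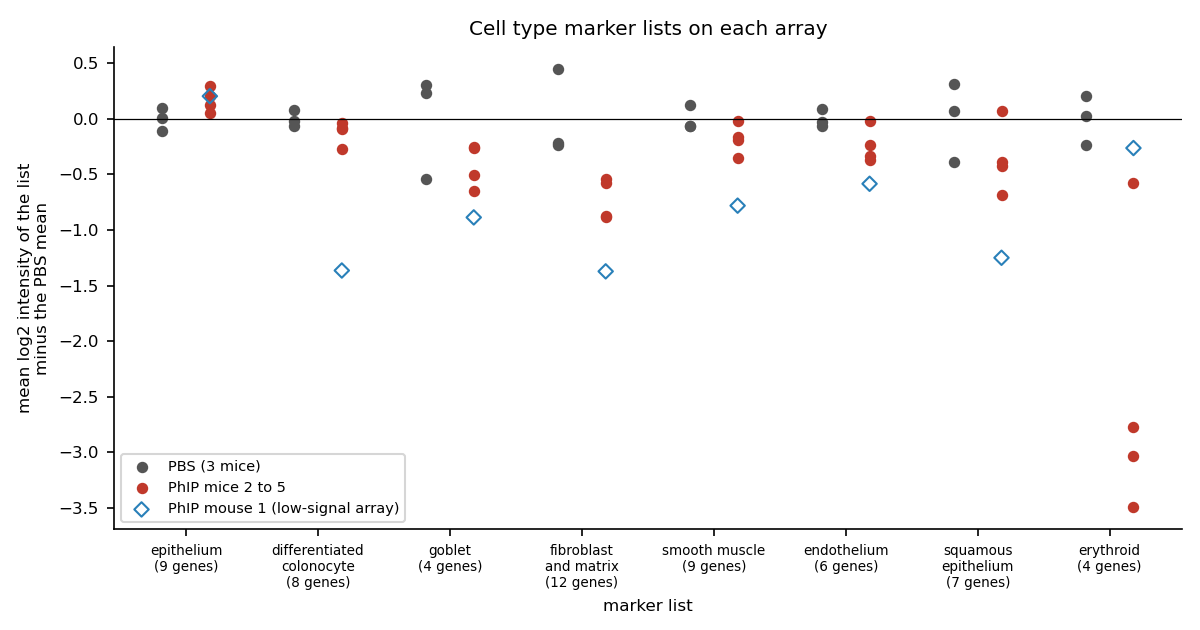
Mean normalized log2 intensity of each cell type marker list on each array, minus the mean of the 3 PBS arrays; each point is 1 mouse, and the open diamond is the low-signal array of PhIP mouse 1. All 5 PhIP points of the fibroblast and matrix list lie below all 3 PBS points, while those of the epithelium list overlap.

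No transport gene passed the test of PhIP against PBS. With limma and Benjamini-Hochberg adjustment over all features (threshold 0.05), 0 of the 28 genes were called in either direction with 8 arrays, where 0.0126% of all features were called higher (2 features) and 0% lower. With 7 arrays the count was again 0 of 28, beside 0.0316% of features called higher (5 features) and 0% lower. The lowest adjusted p among the transport genes was 0.837 with 8 arrays and 0.249 with 7, and across all 24 alternative settings it was 0.152.

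Unadjusted p-values under 0.05 were reached by 1 gene with a higher level, Scnn1a, and 1 with a lower level, Aqp3, with 8 arrays. That is 3.57% of the 28 genes in each direction, beside 1.45% of all features higher and 1.63% lower. With 7 arrays Atp1b1 joined Scnn1a, giving 7.14% of the genes higher beside 5.81% of all features, and Aqp3 alone gave 3.57% lower beside 3.46%. Each of these shares stands on 1 or 2 genes. The count takes 1 probe per gene, and a second Car2 probe, given below, was also under 0.05 with either set of arrays.

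Small positive values were more frequent than negative ones. With 8 arrays, 18 genes had a positive log2 fold change and 10 a negative one, and the median was 0.10, where the median of all features was 0.01. With 7 arrays the split was 19 to 9 and the median 0.15, beside 0.03 for all features. Positive values made up 64.3% of the transport genes and 51.1% of all features with 8 arrays, and 67.9% and 55.8% with 7. The values ran from -0.98 to 0.86 with 8 arrays and from -1.05 to 0.68 with 7, and 25 of the 28 lay within 0.5 of 0 with 7 arrays. On single PhIP arrays the median deviation of the 28 genes from the PBS mean was 0.12, 0.14, 0.18, 0.09 and -0.07 in mice 1 to 5, with an SD of 0.10 over the 5 mice.

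**Figure D2:**
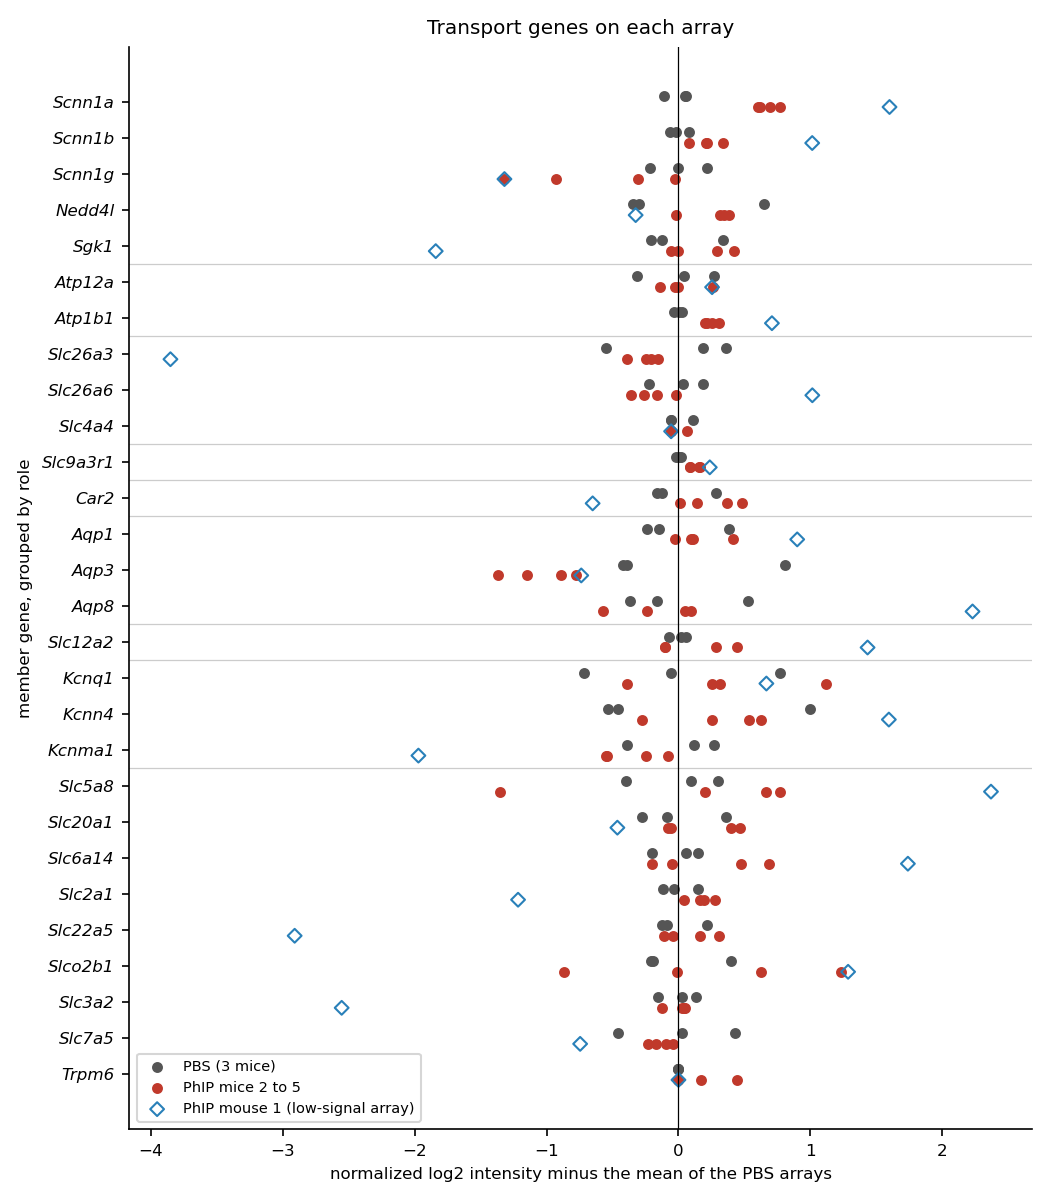
Normalized log2 intensity of the 28 tested transport genes on each array, minus the mean of the 3 PBS arrays of that gene, with genes grouped by role between grey lines; each point is 1 mouse and open diamonds are PhIP mouse 1. The diamonds are the highest or lowest point for 21 genes, and for Scnn1a, Atp1b1 and Slc9a3r1 all PhIP points lie to the right of all PBS points.

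The epithelial sodium channel is built from the subunits that Scnn1a, Scnn1b and Scnn1g encode, and its assembly sets how much sodium the distal colon can absorb. Scnn1a, the alpha subunit, gave a log2 intensity of 6.71, 6.70 and 6.54 in PBS mice 1 to 3. In PhIP mice 1 to 5 it gave 8.25, 7.27, 7.25, 7.34 and 7.42. The groups did not overlap, and the PhIP mice other than mouse 1 spanned 7.25 to 7.42. Its log2 fold change was 0.86 (SE 0.31, 95% interval 0.15 to 1.57, limma adjusted p = 0.837) with 8 arrays and 0.68 (SE 0.13, interval 0.37 to 0.98, limma adjusted p = 0.249) with 7. The scanner software did not find the Scnn1a spot on the array of PhIP mouse 1, where its background-subtracted intensity was 32, against 104 to 126 in PBS mice and 157 to 215 in the other PhIP mice. Within the 4 re-dipped slides the Scnn1a difference was 1.05 (2 PhIP mice, mouse 1 among them, against 2 PBS mice). Within the 4 others it was 0.81 (3 against 1). Within the range of slide numbers that held both groups, PhIP mouse 1 included, it was 0.97 (5 against 1).

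Scnn1b, the beta subunit, read 9.24, 9.34 and 9.20 in PBS mice and 10.27, 9.46, 9.48, 9.60 and 9.34 in PhIP mice. The groups met at a level of 9.34, where PhIP mouse 5 and PBS mouse 2 lay within 0.01 of each other. Scnn1b differed by 0.37 (SE 0.22, interval -0.14 to 0.89) with 8 arrays and 0.21 (SE 0.09, interval -0.0058 to 0.42, limma adjusted p = 0.543) with 7.

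Scnn1g, the gamma subunit, lay the other way. Its PBS values were 5.51, 5.95 and 5.73, and its PhIP values were 4.41, 5.70, 4.41, 4.80 and 5.42, with mice 1 and 3 at the floor. PhIP mouse 2 lay inside the PBS range and the other PhIP mice below it. For Scnn1g the log2 fold change was -0.78 (SE 0.34, interval -1.56 to 0.0047) with 8 arrays and -0.65 (SE 0.32, interval -1.39 to 0.09, limma adjusted p = 0.587) with 7. The difference between subunits was not tested, and levels of different probes cannot be set against each other.

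The listed regulators of the channel showed no such separation. Nedd4l, a ubiquitin ligase that removes the channel from the membrane, averaged 8.98 ± 0.56 (SD, n = 3) in PBS mice and 9.12 ± 0.31 (SD, n = 5) in PhIP mice, a log2 fold change of 0.14 (0.25 with 7 arrays). PBS mouse 3 held the highest Nedd4l value of this probe, 9.63, and PBS mouse 2 the lowest, 8.63, so the PhIP mice lay inside the PBS range. A second Nedd4l probe gave 0.42 with 8 arrays and 0.40 with 7. It read 8.03, 7.84 and 8.64 in PBS mice and 8.65, 8.80, 8.81, 8.10 and 8.56 in PhIP mice, so the groups overlapped. With the slide range as a block, which leaves PBS mouse 3 as the only control, the value of the first Nedd4l probe turned to -0.51. Sgk1, the aldosterone-induced kinase that restrains Nedd4l, read 13.56, 13.65 and 14.11 in PBS mice and 11.93, 14.07, 14.19, 13.77 and 13.72 in PhIP mice. Without the low value of PhIP mouse 1 the Sgk1 difference turned from -0.24 to 0.16, and its second tested probe gave -1.40 and -0.15.

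Among the ion pumps, Atp1b1 encodes the beta 1 subunit of the sodium and potassium ATPase, which carries the pump to the membrane. It read 13.44, 13.40 and 13.46 in PBS mice and 14.14, 13.66, 13.63, 13.69 and 13.74 in PhIP mice. All 5 PhIP values lay above the 3 PBS values, which spanned less than 0.1. Atp1b1 thus had a log2 fold change of 0.34 (SE 0.15, interval -0.0066 to 0.68, limma adjusted p = 0.837) with 8 arrays and 0.24 (SE 0.06, interval 0.10 to 0.38, limma adjusted p = 0.324) with 7. A second Atp1b1 probe gave -0.30 with 8 arrays and 0.14 with 7. That probe read 10.93 in PhIP mouse 1, below the 12.86 to 13.13 of the PBS mice. The mean of both probes gave 0.02 with 8 arrays, and the groups then overlapped. The size and separation of the Atp1b1 difference, and with 8 arrays its sign, thus depend on the probe. Within the re-dipped slides the difference of the first probe was 0.47, within the others 0.23 and within the shared slide range 0.31. Scaling each array by its percentile 75 moved it to 0.75, where the median of all features moved to 0.12.

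Atp12a, the colonic proton and potassium ATPase, averaged 11.84 ± 0.29 (SD, n = 3) in PBS mice and 11.91 ± 0.18 (SD, n = 5) in PhIP mice. The difference was 0.07 with 8 arrays and 0.02 with 7 (interval -0.33 to 0.37). Of the 10 tested sodium and potassium ATPase genes, Atp1b1 included, 6 were positive and 4 negative with both sets of arrays. Fxyd4, a small subunit that modulates the pump in kidney and colon, gave 1.08 (SE 0.55) with 8 arrays and 0.64 (SE 0.38) with 7.

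**Figure D3:**
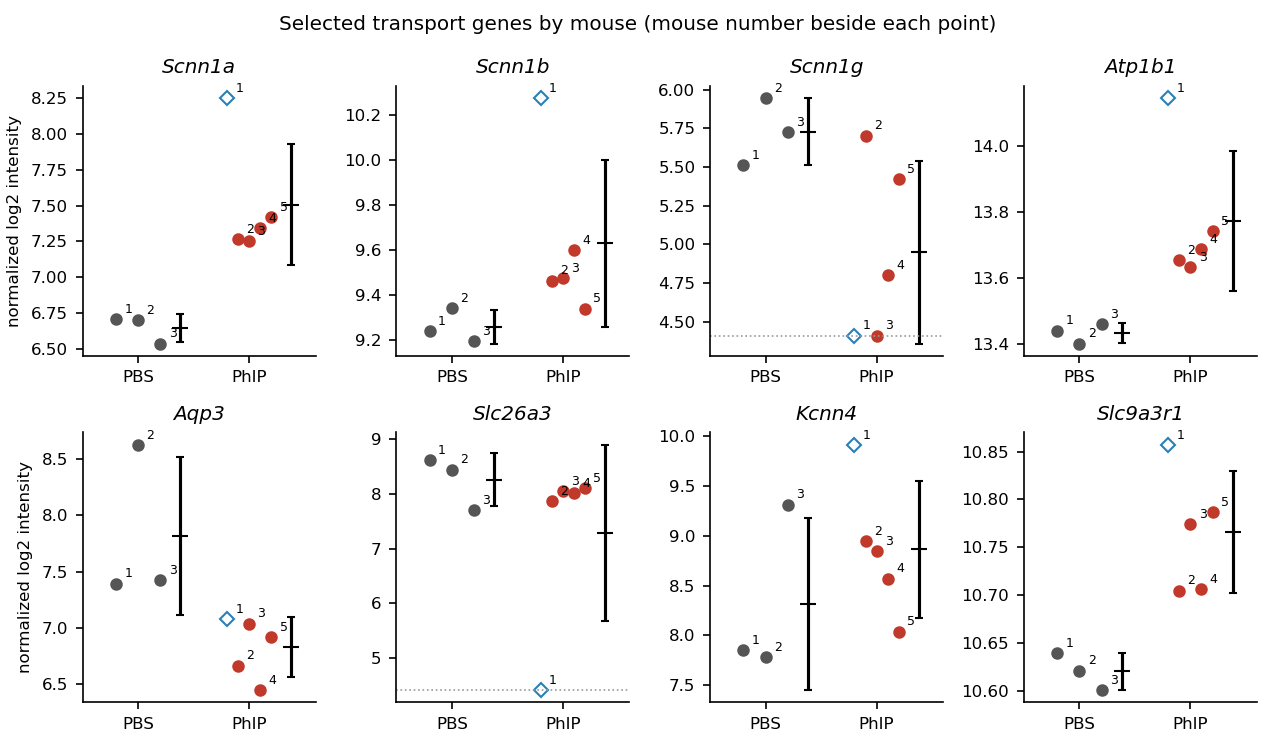
Normalized log2 intensity of 8 transport genes by mouse, with the mouse number beside each point, the mean and SD of each group as a black bar, and the floor of 4.41 as a dotted line where it is in range; axes do not start at 0. The PhIP points lie above the PBS points for Scnn1a, Atp1b1 and Slc9a3r1 and below them for Aqp3, while the PhIP mean of Slc26a3 is set by mouse 1 at the floor.

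Chloride and bicarbonate exchange is carried out at the surface by Slc26a3, the exchanger mutated in congenital chloride diarrhoea. Slc26a3 read 8.62, 8.45 and 7.71 in PBS mice and 4.41, 7.87, 8.05, 8.01 and 8.10 in PhIP mice. PhIP mouse 1 sat at the floor, where the spot was not found, and the other PhIP mice lay inside the PBS range. The log2 fold change of Slc26a3 was -0.97 (SE 0.87, interval -2.96 to 1.02) with 8 arrays and -0.25 (SE 0.22, interval -0.76 to 0.26, limma adjusted p = 0.755) with 7. Within the slides that were not re-dipped, which exclude PhIP mouse 1, it was 0.28.

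Slc26a6, an exchanger that also carries oxalate, read 7.60, 7.19 and 7.45 in PBS mice and 8.43, 7.40, 7.25, 7.06 and 7.15 in PhIP mice. The groups overlapped, and the sign rested on PhIP mouse 1: the log2 fold change was 0.04 (SE 0.36) with 8 arrays and -0.20 (SE 0.16, interval -0.57 to 0.17) with 7. Slc4a4, the sodium and bicarbonate cotransporter, lay at or within 0.2 of the floor on all 8 arrays and gave -0.03 with either set.

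Slc9a3r1, a PDZ scaffold that anchors Slc9a3 and other transporters at the apical membrane, had groups of small spread. It read 10.64, 10.62 and 10.60 in PBS mice and 10.86, 10.70, 10.77, 10.71 and 10.79 in PhIP mice. Every PhIP value lay above every PBS value, with a log2 fold change of 0.15 (SE 0.10, interval -0.09 to 0.38) with 8 arrays and 0.12 (SE 0.06, interval -0.02 to 0.27, limma adjusted p = 0.594) with 7. Pdzk1, a related scaffold that is not on the list, gave -0.55 (SE 0.22) with 8 arrays and -0.67 (SE 0.16, limma adjusted p = 0.324) with 7.

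Groups that did not overlap were counted over the list. All PhIP arrays lay above all PBS arrays for Scnn1a, Atp1b1 and Slc9a3r1, 10.7% of the 28 genes, beside 3.66% of all features with 8 arrays and 5.99% with 7. They lay below for Aqp3 alone, 3.57% of the genes, beside 2.07% of features with 8 arrays and 2.89% with 7. With the mean of a gene's probes and 8 arrays, Atp1b1 no longer separated, which left 3 genes (10.7%) beside 5.56% of features. Without PBS mouse 3 the count of genes with separate groups went from 4 to 9, with Aqp1 and Kcnn4 above and Kcnma1, Slc26a3 and Slc7a5 below. That is 32.1% of the genes in both directions together beside 17.3% of all features, where all 8 arrays gave 14.3% beside 5.73%. Fewer mice separated more genes and more features alike: 15 genes (53.6%) beside 40.8% of features within the re-dipped slides, 19 (67.9%) beside 52.6% within the others, and 8 (28.6%) beside 23.3% within the range of slide numbers that held both groups.

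Carbonic anhydrase Car2, the cytosolic isoform that feeds bicarbonate to the exchangers, had the only tested probes of its kind on the list. It averaged 10.72 ± 0.25 (SD, n = 3) in PBS mice and 10.79 ± 0.44 (SD, n = 5) in PhIP mice. The Car2 difference was 0.07 with 8 arrays and 0.25 with 7 (interval -0.11 to 0.60). A second Car2 probe gave 0.46 and 0.50 (limma unadjusted p = 0.036 and 0.018, in a fit over all tested probes). With the slide range as a block, which leaves PBS mouse 3 as the only control, the first probe gave -0.22. Car1, an abundant cytosolic isoform of mouse colon in other work, was found on 1 array only, and Car4, the membrane-bound isoform, on none.

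Among the water channels, Aqp3, a basolateral channel for water and glycerol, had the most negative log2 fold change of the list. It read 7.39, 8.62 and 7.43 in PBS mice and 7.08, 6.67, 7.04, 6.45 and 6.92 in PhIP mice. All PhIP values lay below all PBS values, although PBS mouse 2 alone stood more than 1 above the other PBS mice. Aqp3 gave a log2 fold change of -0.98 (SE 0.36, interval -1.81 to -0.16, limma adjusted p = 0.837) with 8 arrays and -1.05 (SE 0.33, interval -1.81 to -0.28, limma adjusted p = 0.416) with 7. Without PBS mouse 2 it was -0.58. Within the re-dipped slides it was -0.95, within the others -0.75 and within the shared slide range -0.60, and no spot of Aqp3 was found on the array of PhIP mouse 1.

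Aqp3 is also abundant in stratified squamous epithelium, such as that of the anal margin. Of 10 squamous markers, 7 were tested (Dsg3, Krt6a and Sprr3 were not found), and 6 of the 7 were negative with either set of arrays. Their mean level was 7.22, 7.68 and 7.92 in PBS mice and 6.36, 6.92, 7.68, 7.18 and 7.22 in PhIP mice, so the groups overlapped. The part of squamous tissue in the Aqp3 result was not tested.

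Aqp8, a colonocyte channel, lay near the floor on all arrays but that of PhIP mouse 1, where its spot was not found. Its background-subtracted intensity there was 15, against 21 to 55 on the other arrays. It read 4.62, 5.51 and 4.83 in PBS mice and 7.22, 4.42, 4.75, 5.08 and 5.04 in PhIP mice, and the 4 PhIP mice other than mouse 1 lay at or below the PBS maximum. On average Aqp8 differed by 0.31 (SE 0.60, interval -1.07 to 1.70) with 8 arrays and -0.16 (SE 0.26, interval -0.76 to 0.44) with 7. Aqp4, another basolateral water channel, was not found on any array with any of its 3 probes.

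Aqp1, which is carried by capillary endothelium and red cells, averaged 10.13 ± 0.34 (SD, n = 3) in PBS mice and 10.43 ± 0.37 (SD, n = 5) in PhIP mice. Its log2 fold change was 0.30 with 8 arrays and 0.15 with 7 (interval -0.25 to 0.55). A second Aqp1 probe gave -0.29 and 0.21, and the mean of both probes 0.0054 with 8 arrays. Within the range of slide numbers that held both groups the first probe gave -0.086, so the sign of the Aqp1 difference was not settled. Of 6 tested endothelial markers, 5 were negative, with a mean level of 8.19 to 8.34 in PBS mice and 7.67 to 8.23 in PhIP mice. Of 4 tested erythroid markers, 2 were negative with 8 arrays and 3 with 7, and their mean level was 8.74 to 9.18 in PBS mice and 5.48 to 8.72 in PhIP mice. Hba-a1, an alpha globin, stood at 13.04 or more in all PBS mice and at 5.04 to 12.60 in PhIP mice. The globins Hba-a1 and Hbb-b2 gave -4.67 and -3.81 with 8 arrays and -5.64 and -4.40 with 7. The other tested erythroid markers differed far less: Slc4a1 gave 0.33 and 0.42, and Alas2 0.02 and -0.24.

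Chloride secretion was represented by Slc12a2, the basolateral sodium, potassium and chloride cotransporter, since the probe of Cftr, the apical chloride channel, was found on no array. Slc12a2 averaged 13.41 ± 0.07 (SD, n = 3) in PBS mice and 13.80 ± 0.63 (SD, n = 5) in PhIP mice. PhIP mouse 1 held the highest value, 14.84, and PhIP mice 3 and 5 the lowest, 13.30. Its log2 fold change was 0.39 (SE 0.34) with 8 arrays and 0.13 (SE 0.15, interval -0.21 to 0.47) with 7, and a second Slc12a2 probe gave -0.31 and -0.69.

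The potassium channels Kcnq1 and Kcnn4 keep the basolateral membrane polarized during secretion. Kcnq1 read 8.60, 7.94 and 9.42 in PBS mice and 9.32, 8.97, 9.77, 8.91 and 8.27 in PhIP mice. Kcnn4, the calcium-activated channel of intermediate conductance, read 7.85, 7.78 and 9.31 in PBS mice and 9.91, 8.94, 8.85, 8.57 and 8.04 in PhIP mice. For both genes PBS mouse 3 stood well above the other PBS mice and inside the PhIP range. The log2 fold change of Kcnn4 was 0.55 (SE 0.49) with 8 arrays and 0.28 (SE 0.40) with 7. It was 1.56 within the re-dipped slides, PhIP mouse 1 included, and -0.79 within the others, where PBS mouse 3 was the only control. That of Kcnq1 was 0.39 (SE 0.41) and 0.32 (SE 0.42), with 1.27 and -0.71 within the same slides.

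Kcnma1, the large-conductance channel, is expressed in smooth muscle as well as in colonic crypts. It read 7.93, 8.07 and 7.42 in PBS mice and 5.84, 7.27, 7.26, 7.73 and 7.56 in PhIP mice, with mouse 1 far below the rest and mice 4 and 5 inside the PBS range. The log2 fold change of Kcnma1 was -0.68 (SE 0.45) with 8 arrays and -0.35 (SE 0.21, interval -0.83 to 0.13, limma adjusted p = 0.647) with 7. Of 9 tested smooth muscle markers, 8 were negative with either set of arrays, with a mean level of 11.39 to 11.58 in PBS mice and 10.68 to 11.44 in PhIP mice. Acta2, smooth muscle actin, gave -1.01 with 8 arrays and -0.47 with 7. The part of smooth muscle in the Kcnma1 value was not tested.

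**Figure D4:**
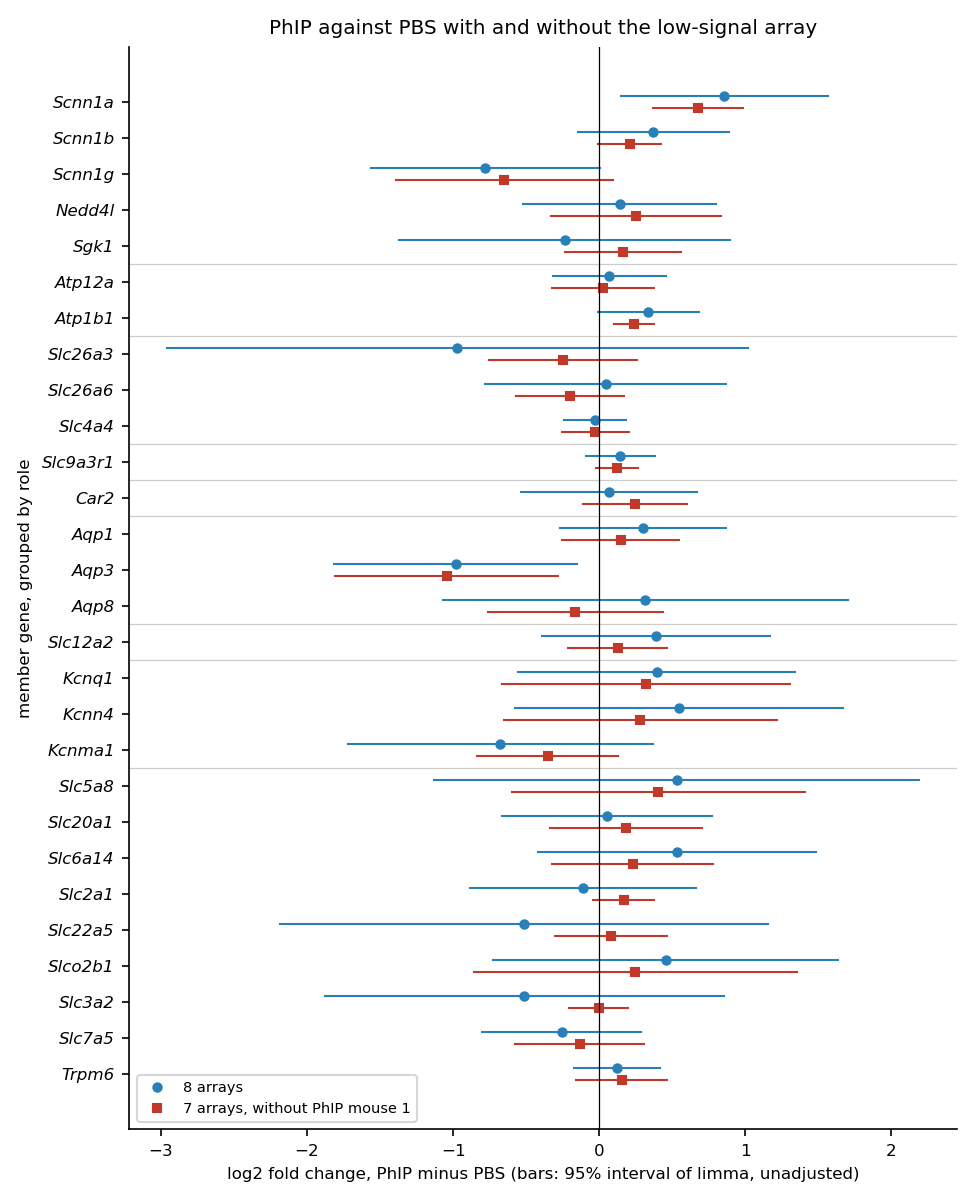
Log2 fold change of PhIP against PBS for the 28 tested transport genes, with 8 arrays (blue circles) and with 7 arrays (red squares); bars are unadjusted 95% intervals from limma, and grey lines part the roles. With 8 arrays the intervals of Scnn1a and Aqp3 do not cross 0, with 7 arrays those of Scnn1a, Atp1b1 and Aqp3, and the bars of most genes shorten without PhIP mouse 1.

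Nutrient carriers made up the rest of the list. Slc2a1, the facilitated glucose carrier, read 11.03, 11.29 and 11.11 in PBS mice and 9.93, 11.34, 11.42, 11.30 and 11.19 in PhIP mice. PhIP mice 2, 3 and 4 lay above the PBS range and mouse 5 inside it. Its log2 fold change was -0.11 (SE 0.34) with 8 arrays and 0.17 (SE 0.09, interval -0.04 to 0.38, limma adjusted p = 0.621) with 7.

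Slc7a5 and Slc3a2 encode the light and heavy chains of a carrier of large neutral amino acids. Slc7a5 read 11.74, 11.34 and 10.85 in PBS mice and 10.56, 11.13, 11.21, 11.08 and 11.26 in PhIP mice. The 3 PBS mice spanned a wider range than PhIP mice 2 to 5, which lay inside it. Slc7a5 had a log2 fold change of -0.26 (SE 0.24) with 8 arrays and -0.13 (SE 0.19, interval -0.57 to 0.30) with 7. For Slc3a2, PhIP mouse 1 read 9.77 and the 7 other mice 12.17 to 12.46. This gave -0.51 (SE 0.59) with 8 arrays and -0.0029 (SE 0.09, interval -0.21 to 0.20) with 7. A second Slc3a2 probe read 10.94 in PhIP mouse 1, inside the 10.85 to 11.33 of the other mice, and gave -0.11 and -0.08.

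Both chains are known targets of the amino acid stress factor Atf4, whose other targets were listed as well. Of 11 tested Atf4 genes, 5 were positive and 6 negative with either set. Ddit3, a stress-induced transcription factor, gave 0.55 (SE 0.19) and 0.59 (SE 0.17), Sesn2 0.59 (SE 0.37) and 0.81 (SE 0.23), and Atf3 0.45 (SE 0.25) and 0.58 (SE 0.18). Asns, the asparagine synthetase, gave -0.53 (SE 0.30) and -0.34 (SE 0.21). None passed adjustment.

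Slc6a14, a broad amino acid carrier, read 4.75, 4.41 and 4.67 in PBS mice and 6.35, 4.56, 5.30, 5.08 and 4.41 in PhIP mice. PBS mouse 2 and PhIP mouse 5 were at the floor, and PhIP mice 1, 3 and 4 lay above the PBS range. The spot was not found for PBS mouse 1 and PhIP mice 1 and 5. In PhIP mouse 1 its background-subtracted intensity was 10, against 16 to 45 on the other arrays. The log2 fold change of Slc6a14 was 0.53 (SE 0.41, interval -0.42 to 1.48) with 8 arrays and 0.23 (SE 0.24, interval -0.32 to 0.78) with 7.

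Slc5a8 takes up short-chain fatty acids with sodium. Its brightest probe with 8 arrays gave 0.53 (SE 0.72), and the same probe gave 0.07 with 7 arrays. That probe read 4.41 to 8.13 in PhIP mice, with the 8.13 in mouse 1, against 5.36 to 6.06 in PBS mice. The brightest Slc5a8 probe with 7 arrays, a different one, gave 0.40 (SE 0.43) with 7 and also 0.40 with 8. Slc22a5, the carnitine carrier, sat at the floor in PhIP mouse 1, where its spot was not found, and at 7.19 to 7.62 in all other mice. Its log2 fold change was -0.52 with 8 arrays and 0.08 (interval -0.30 to 0.47) with 7. A second Slc22a5 probe, also not found in PhIP mouse 1, gave 0.37 and 0.14. Slco2b1, an organic anion carrier, ranged from 5.27 to 5.87 in PBS mice and from 4.61 to 6.76 in PhIP mice (0.45 and 0.25). The 6.76 was that of PhIP mouse 1, where the Slco2b1 spot was not found. Its background-subtracted intensity there was 12, against 25 to 104 on the other arrays. Slc20a1, a phosphate carrier, gave 0.05 and 0.18, with overlapping groups. Trpm6, the magnesium channel, read no more than the floor in any PBS mouse and 4.85 or less in PhIP mice.

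PhIP mouse 1 widened the errors of nearly all of these values. The SE was larger with 8 arrays than with 7 for 25 of the 28 genes, with a median of 0.34 against 0.17, as over all features (0.34 and 0.18). The sign of the log2 fold change differed between the 2 sets for 5 genes, Slc26a6, Aqp8, Sgk1, Slc2a1 and Slc22a5. Of 11 genes with several tested probes, the probes differed in sign for 5 with 8 arrays and for 2, Sgk1 and Slc12a2, with 7.

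Transport genes outside the list were not called either. Of 48 other epithelial transporters and channels, 27 were tested, with 14 positive and 13 negative values with 8 arrays, 15 and 12 with 7, and 0 called in either. Slc5a6, the sodium-dependent vitamin carrier, gave 0.64 (SE 0.29) with 8 arrays and 0.47 (SE 0.15) with 7, and Slc40a1, the iron exporter, 0.36 (SE 0.18) and 0.39 (SE 0.14). Slc7a7, an amino acid exchanger, gave -0.90 (SE 0.53) and -0.49 (SE 0.18). Each of these 3 genes had an unadjusted p under 0.05 with 7 arrays only.

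Of 26 regulators of epithelial transport, 16 were tested, 8 of them positive and 8 negative with either set. Prss8 and St14 encode membrane proteases that act in series upstream of the sodium channel, whose subunits proteases cleave. St14 gave 0.77 (SE 0.33) with 8 arrays and 0.22 (SE 0.09) with 7, and Prss8 gave 0.19 (SE 0.22) and 0.35 (SE 0.10). Of 18 other carbonic anhydrases and aquaporins, 12 were tested and 0 called. Car14 had the smallest p with 7 arrays (0.79, SE 0.28, limma adjusted p = 0.458) and gave 0.44 (SE 0.49) with 8.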

How the data were processed

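Per the labels' protocols, cRNA of each mouse carried biotin, was stained with Alexa-647 and bound to 1 spotted array of long oligonucleotides. GenePix Pro 4.1.1.4 measured each spot against its local background, unnormalized, per the file headers. The deposited intensity used was the spot's median minus its background, and the deposited flag is a quality score (found, not found, empty or bad). In the authors' deposited log2 value table, used as an alternative, 7 columns equalled the log2 intensity of a scan plus a constant. Its column for PhIP mouse 1 held the scan of PhIP mouse 2, and that for PhIP mouse 2 matched no scan used here. The sources used here do not say where the constants come from, and column medians ran from 4.68 to 5.13.

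Of 38880 spots per array, 35078 were mouse probes, 23 of which were left out as bad. Probes were named by RefSeq accession from the GRCm38.p6 gene table, giving 23071 probes with 1 symbol, 0 with several and 12007 with none. Intensities were quantile normalized, raised to a floor of 21.25 (percentile 5 of found spots) and put on the log2 scale. Probes found on at least 3 arrays were tested, with the probe of highest mean for each gene. Groups came from the sample titles. PhIP was compared with PBS, 2-sided, by limma 3.58.1 in R 4.3.3 (lmFit, eBayes with trend), with Benjamini-Hochberg adjustment over 15854 features (8 arrays) or 15842 (7 arrays, normalized anew). Per-array values are from the 8-array normalization. The steps were tested on simulated data. The labels name separate mice, and the number of arrays limits the precision.

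Members and other lists were chosen with earlier results of these data known. Per-array values were given for any called gene, for the 5 smallest p per direction with either set of arrays, and for Slc26a3, Slc9a3, Car1, Aqp8, Scnn1a and Cftr. Genes outside the list were named from the 4 smallest p of their list, except the tested colonocyte markers, which were all named for their level. The per-array values of Sgk1, Kcnn4 and Kcnq1 were added after they were seen. Mouse numbers 1 to 3 occur in both groups, but same-numbered arrays did not deviate together (correlations -0.09, 0.19 and -0.12), so mice were not paired. Alternatives covered left-out arrays, the number, slide range and re-dipping as blocks, values within slides of 1 kind, scaling, background, floor, filter, probe choice, array weights and the authors' table. Plots used matplotlib 3.10.9 (Python 3.11.15).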

Additional observations from a re-analysis of the deposited data

Results flagged for a closer look

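For 13 of the 28 tested transport genes, 1 of the 5 PhIP arrays lay far from the other 4, by Dixon's gap test at its 95% level, which chance meets in about 1 of 20 groups. In 12 of these 13 genes the array apart was that of PhIP mouse 1, which found 21.4% of its probes, and it lay low in 7 and high in 5. It was low for Slc26a3 (4.41), Sgk1 (11.93), Kcnma1 (5.84), Slc2a1 (9.93), Slc22a5 (4.41), Slc3a2 (9.77, by the brightest probe only) and Slc7a5 (10.56). It was high for Scnn1a (8.25), Scnn1b (10.27), Atp1b1 (14.14), Slc26a6 (8.43) and Aqp8 (7.22). Among these genes, the spots of Scnn1a, Aqp8, Slc26a3, Kcnma1 and Slc22a5 were not found on that array. The range of the other PhIP mice for Scnn1a was 7.25 to 7.42, and for Atp1b1 13.63 to 13.74. In the remaining gene, Slc4a4, PhIP mouse 3 read 4.53 and the others were at the floor of 4.41.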

How the results depend on the processing

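No transport gene was called under any of the 24 alternatives, of which 3 (7 arrays with the slide range or re-dipping as a block, or with percentile 75 scaling) were chosen after seeing the data. Leaving out each mouse gave 0 calls throughout, a median log2 fold change of 0.04 to 0.15 and 4 to 9 genes with separate groups, the 9 being without PBS mouse 3. That count was 15 within the re-dipped slides (53.6% of the genes, beside 40.8% of all features), 19 within the others (67.9% beside 52.6%) and 8 within the shared slide range (28.6% beside 23.3%). Scaling to percentile 75 moved the median over the 28 genes to 0.27. Scnn1a (0.59 to 1.05), Aqp3 (-1.32 to -0.58) and Atp1b1 (0.02 to 0.75) kept their signs in all 25 settings, the reported one included. The second Atp1b1 probe alone, which was not a setting, gave -0.30 with 8 arrays.

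The sign turned in at least 1 setting for 20 of the 28 genes, and the cause was not tested. These were 6 genes given with per-array values by rule and 14 others, Car2, Aqp1, Atp12a, Nedd4l, Sgk1, Slc5a8, Slc12a2, Kcnq1, Kcnn4, Slc4a4, Slc20a1, Slc22a5, Slco2b1 and Slc3a2. Among the 14, the slides that were not re-dipped gave Kcnn4 -0.79, Kcnq1 -0.71 and Aqp1 -0.32. The slide range as a block gave Nedd4l -0.51 and, with 7 arrays, Slc5a8 -0.65. In those slides and with that block, PBS mouse 3 was the only control. For the 6, each turned value follows. Within the slides that were not re-dipped, Slc26a3 was 0.28, Slc26a6 -0.24, Kcnma1 0.10, Slc2a1 0.16 and Slc7a5 0.31. With 7 arrays and the slide range as a block, they were 0.30, -0.23, 0.037, 0.20 and 0.32, and Aqp8 was -0.0016. With 7 arrays and re-dipping as a block, Slc26a6 was -0.20, Aqp8 -0.14, Slc2a1 0.21 and Slc7a5 0.012. With 7 arrays scaled to percentile 75, Slc26a6 was -0.22, Aqp8 -0.23 and Slc2a1 0.22. Array weights gave Slc26a6 -0.25, Aqp8 -0.061 and Slc2a1 0.18, and the authors' deposited table -0.074, -0.26 and 0.12. With 8 arrays, percentile 75 scaling gave Slc2a1 0.14 and Slc7a5 0.027, and the slide range gave Slc7a5 0.20, both as a block and within it. Leaving out 1 mouse gave -0.20 to 0.14 for Slc26a6, -0.16 to 0.59 for Aqp8 and -0.20 to 0.17 for Slc2a1, with the turned value without PhIP mouse 1. Slc26a6 also turned without PBS mouse 2, to -0.065.

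With the replicate block of mouse number, the median was 0.14, 0 transport genes were called and the lowest adjusted p was 0.719. The numbers do not pair the mice. Over all features, calls numbered 2 with 8 arrays, 0 with the replicate block, 5 with 7 arrays, 11 with array weights and 11 with the authors' table. They were most with 7 arrays and the slide range as a block, 6 higher and 16 lower. Probes near background, such as those of Aqp8, Slc4a4, Slc6a14 and Trpm6, give values set partly by the floor.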
